A study of Homo sapiens with 12 samples.

Results

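The 10 genes described here belong to the Wnt pathway and were chosen by name, from their known roles, out of 56269 genes in the count table. They are 3 ligands (WNT3, WNT5A and WNT5B), 2 secreted antagonists (DKK1 and DKK3), the effector gene CTNNB1, the nuclear factors LEF1 and TCF7, and AXIN2 and ZNRF3, both targets that act back on the pathway. They were measured by RNA-seq in 12 libraries of HEYA8, an established ovarian cancer cell line, 3 libraries in each of 4 groups. HEYA8 cells of all 4 groups were stable lentiviral populations sorted by the dTomato marker of the vector, grown in RPMI-1640 with 10% FBS and given the treatment label of a resting state. Control vector cells carried the empty vector, and the other groups carried betaglycan (BG, the type III TGF-β receptor encoded by TGFBR3) with a change at 1 or both of the serines that hold its glycosaminoglycan (GAG) chains. ∆GAG-BG lacked both attachment sites, S534A is the form named CS-BG for its chondroitin sulfate chains, and S545A is the form named HS-BG for its heparan sulfate chains. The paper's enzyme digestion found heparan sulfate on S534A as well as chondroitin sulfate, so S545A against S534A does not cleanly set 1 kind of chain against the other. Nothing in the labels says that libraries of a group came from separate populations, so the p-values measure the spread between libraries, which may be technical. The comparisons bear on whether cells with HS-BG, CS-BG or ∆GAG-BG differ in the RNA of the Wnt pathway, a pathway on which these chains have been reported to act.

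Wnt ligands are secreted proteins that bind Frizzled receptors. In the canonical branch a Wnt signal stops the destruction complex, built on the AXIN scaffolds and APC, from removing β-catenin, which then enters the nucleus and turns on genes together with factors of the TCF/LEF family. Several of those genes, AXIN2 and ZNRF3 among them, switch the signal off again, and their RNA is widely read as a sign of canonical activity. WNT3 mainly works through β-catenin, whereas WNT5A and WNT5B mostly act through branches that do not need it. Heparan sulfate on cell surface proteoglycans holds Wnt ligands near their receptors.

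Depth and the construct gene were looked at first, since they limit what follows. Total counts ran from 16410001 to 29504297 per library, so a listed count of 0 leaves room for up to 3 counts, or 0.10 to 0.182 CPM (read counts scaled to library size, here with TMM factors). Such limits cover counting error only. TGFBR3 was at 476, 413 and 456 CPM in S534A libraries 1, 2 and 3 and at 574, 521 and 520 CPM in S545A. The libraries labelled ∆GAG-BG held 259, 20.3 and 21.4 CPM and those labelled control vector 15.9, 259 and 259 CPM, so that in libraries 2 and 3 of these groups the construct gene went against the labels. The labels were kept, and every direction drawn from either group carries this doubt. In S545A, ∆GAG-BG and control vector, libraries 2 and 3 were nearly alike. Their chi-square divided by its degrees of freedom was 1.40 to 1.94, and it was 16.4 to 74.4 for the other pairs within a group. Each library outside the near-alike pairs was closer to a library of another group than to any of its own. S534A 1 was at 3.86 from S545A 1, for example, and S534A 3 at 3.94 from control vector 2. Differences between libraries thus crossed the labels, which limits every comparison of groups. S534A library 2 stood apart from all 11 others (61.0 to 119), and ∆GAG-BG library 1 was the next most distant (33.5 to 119). The third S545A library has a title that reads S545S and a genotype label of S545A. Of the ovarian and epithelial markers, PAX8 was at 193 to 295 CPM and KRT7 at 745 to 1139 CPM, whereas MUC16 and CDH1 had 0 counts in every library. Summed leukocyte markers reached at most 0.188 CPM, and the summed endothelial list lay between 171 and 445 CPM, nearly all of it CDH5, with PECAM1 at 4 to 17 counts. In bulk RNA, fewer cells of a type and less RNA per cell cannot be told apart.

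All 10 genes passed the filter on low counts, and none differed between any pair of groups once p-values were adjusted. With edgeR's quasi-likelihood test over 16069 genes, 0 of the 10 had an adjusted p under 0.05 in each of the 6 comparisons, against 0% of all genes. At an unadjusted p under 0.05, S534A against ∆GAG-BG gave 1 member, ZNRF3, where 2.99% of all genes were called. S545A against ∆GAG-BG gave 1, AXIN2, against 1.1% of all genes, and S545A against S534A gave 1, LEF1, against 4.78%. The comparisons of ∆GAG-BG, S534A and S545A with control vector gave 0 members each, against 0.871%, 3.45% and 1.05% of all genes. A single call is the smallest count above 0 that 10 genes can give. DESeq2 called 0 of the 10 at an adjusted p under 0.05 in all 6 comparisons, and 0, 5, 0, 1, 2 and 0 of all genes in the order ∆GAG-BG against control vector, S534A and then S545A against ∆GAG-BG, S545A against S534A, and S534A and then S545A against control vector. The median log2 fold change of the 10 genes was -0.21 in S545A against ∆GAG-BG and -0.17 in S545A against S534A, beside a median over all genes of -0.01 and -0.0002. In the other 4 comparisons the members' median lay between -0.08 and 0.06. The comparisons share their groups and are not independent of each other.

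**Figure D1:**
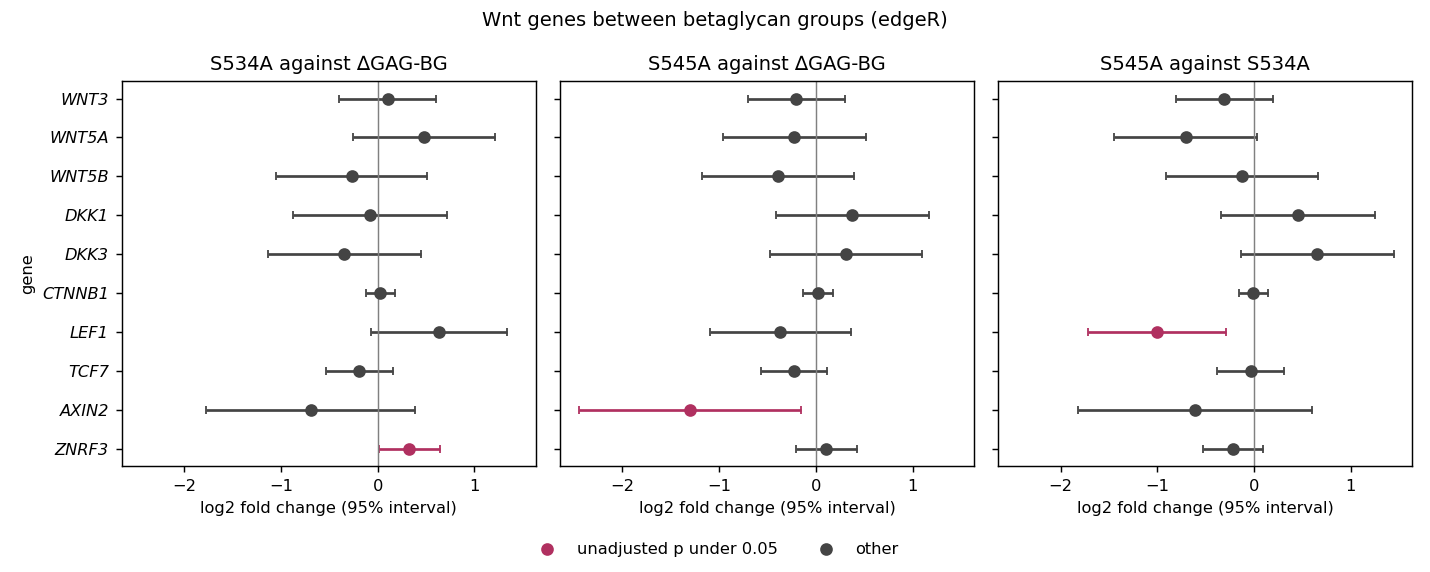
Log2 fold change (x axis) of the 10 Wnt genes (y axis) for S545A against S534A and for both forms against ∆GAG-BG, with 95% intervals from edgeR as bars, 3 libraries a group. Red points have an unadjusted p under 0.05 (ZNRF3 at 0.33, AXIN2 at -1.30 and LEF1 at -1.00), and the interval of CTNNB1 is narrow around 0 in all 3 panels.

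Levels between genes were compared per length, as CPM per kilobase of exon (RPKM), averaged over the 12 libraries. CTNNB1 was highest at 97.9 RPKM and DKK1 next at 60.6 RPKM, with DKK3 at 14.4 and WNT5B at 9.05. WNT5A (2.74 RPKM), WNT3 (1.87), TCF7 (1.64) and ZNRF3 (1.42) followed, then LEF1 at 0.522 RPKM and AXIN2 at 0.0869 RPKM. Over the 12 libraries, the ranges of CTNNB1, DKK1 and DKK3 did not overlap each other and those of ZNRF3 and LEF1 did not either, while the other neighbours in this order overlapped. By their means, DKK1 and DKK3 were above all 3 ligands.

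Of the 19 Wnt ligand genes, 8 passed the filter, and WNT5B was the highest of them, followed by WNT7A at 3.20 RPKM. WNT3A, the ligand whose signal betaglycan chains were reported to alter, had 0 counts in all 12 libraries, which leaves room for at most 0.10 to 0.182 CPM. WLS, which carries Wnt proteins to the cell surface, was at 23.9 RPKM and PORCN, the enzyme that adds their lipid, at 1.18 RPKM. Of 15 genes of secreted antagonists 5 passed, with IGFBP4, a growth factor binding protein that also inhibits Wnt, at 337 RPKM and SFRP1, a decoy that binds ligands, at 17.9 RPKM. None of the 5 agonist genes (RSPO1 to RSPO4 and NDP) passed, with at most 2 counts in any library.

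**Figure D2:**
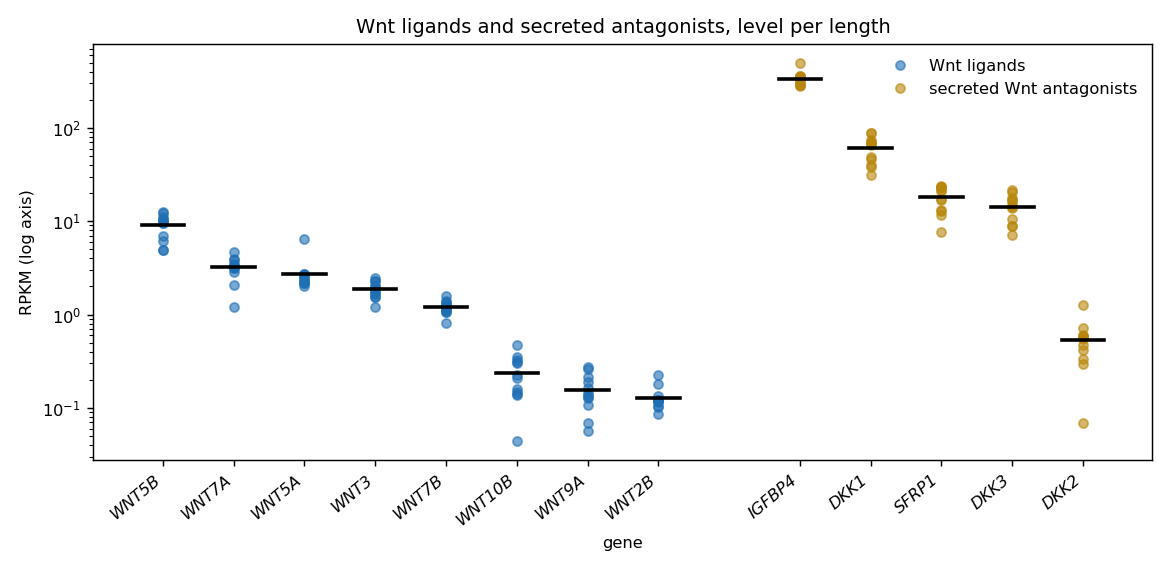
Level per exon length (RPKM, log axis) of the Wnt ligand genes (blue) and secreted antagonist genes (gold) that passed the filter, with each of the 12 libraries as a point and the mean as a line. WNT5B leads the ligands at 9.05 RPKM, and by their means IGFBP4 (337), DKK1 (60.6), SFRP1 (17.9) and DKK3 (14.4) lie above every ligand, although single libraries of DKK3 and WNT5B overlap.

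WNT3, a ligand of the canonical branch, is a minus strand gene (GRCh38, chromosome 17, 46762506 to 46833154). It was at 10.0, 6.73 and 7.86 CPM in control vector libraries 1, 2 and 3 and at 5.26, 8.68 and 10.7 CPM in ∆GAG-BG. S534A held 7.67, 9.97 and 8.85 CPM and S545A 6.74, 7.24 and 7.44 CPM. The ∆GAG-BG libraries spanned the whole range of the 12, and every S545A library was below every S534A library, by a narrow margin. That made WNT3 the 1 member whose S545A and S534A groups did not overlap, against 10.1% of all genes (edgeR unadjusted p = 0.205, exact permutation p = 0.1, the lowest value possible with groups of 3). ∆GAG-BG library 1, where WNT3 was lowest, also had a mean of 8.78 for 10 genes of endoplasmic reticulum stress on the log2(CPM + 1) scale, against 5.49 to 7.39 in the other 11 libraries. Its part in the WNT3 level was not tested. That list of genes was drawn up after earlier results of these libraries had been seen.

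WNT5A, on chromosome 3 from 55465715 to 55490539 on the minus strand, was even across most libraries. It was at 16.6, 20.0 and 20.7 CPM in control vector, at 19.7, 20.6 and 18.3 CPM in ∆GAG-BG and at 16.5, 16.9 and 16.7 CPM in S545A. In S534A it was at 15.1, 48.2 and 18.1 CPM, so the S534A group held both the lowest and the highest library of the study. The high value belongs to the S534A library that stood apart from the rest. All 3 S545A libraries were below all 3 ∆GAG-BG libraries, the 1 member without overlap in that comparison, where 5.04% of all genes did not overlap (edgeR unadjusted p = 0.521). S545A and S534A overlapped, with an unadjusted p of 0.0582 by edgeR. Without S534A library 1 that p was 0.00637 and without S534A library 3 it was 0.0170, both of which leave library 2 with more weight. Without S534A library 2 the log2 fold change was 0.01 (edgeR unadjusted p of 0.904).

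WNT5B, on chromosome 12 from 1529891 to 1647243 on the plus strand, followed the replicate number. It was at 26.7, 42.8 and 43.9 CPM in control vector and at 29.5, 54.3 and 52.7 CPM in ∆GAG-BG. S534A held 21.1, 45.0 and 47.5 CPM and S545A 21.1, 41.6 and 41.2 CPM. The 4 libraries numbered 1 thus ran from 21.1 to 29.5 CPM and the 8 others from 41.2 to 54.3 CPM, without overlap, while the 4 groups overlapped in every comparison. The labels do not tie a replicate number to a batch or day. How many of all genes part by replicate number in this way was not counted, so this cannot be called particular to WNT5B. Across the 6 comparisons the 95% intervals of WNT5B reached from 0.442-fold to 2.07-fold. With the replicate number as a block, WNT5B had an unadjusted edgeR p of 0.0120 for S534A and 0.00192 for S545A against ∆GAG-BG. It was 0.0281 for ∆GAG-BG against control vector, and the adjusted p was 0.84 or more throughout. The lowest correlation of same-numbered libraries was -0.118, -0.0184 and -0.160 in that order, so the numbers were not taken as pairs there. The block also counts near-alike libraries as separate ones. These p-values therefore cannot decide whether WNT5B differs between the groups.

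**Figure D3:**
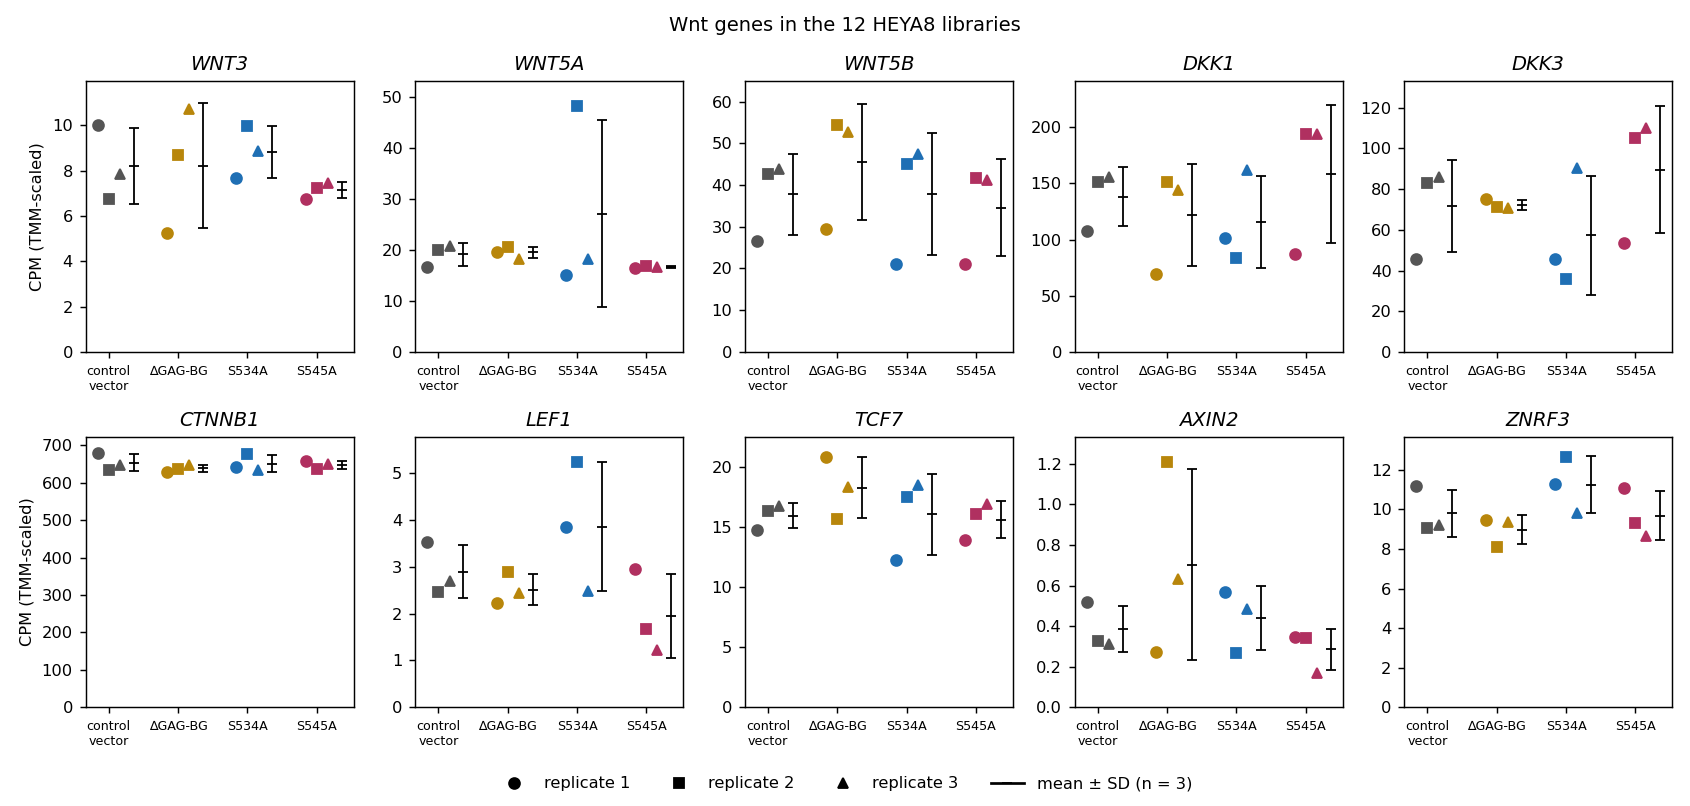
CPM (TMM-scaled, axes from 0) of the 10 Wnt genes in the 4 groups, with the replicate number as the marker shape and the mean ± SD (n = 3) in black. CTNNB1 is even over all libraries, WNT5B is low in the 4 libraries numbered 1 (21.1 to 29.5 CPM), and WNT5A is high only in S534A library 2 (48.2 CPM).

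DKK1 codes for a secreted inhibitor that takes the LRP co-receptors away from Wnt, and it is itself a known target of β-catenin and TCF. It lies on chromosome 10 from 52314296 to 52318042 on the plus strand. The 250 bases before its RefSeq start (GRCh38.p14, chr10:52314031-52314280, plus strand) are shown because they hold 2 copies of the core TCF/LEF letters, the most of any member. The capitals mark the matches to CTTTG followed by 2 letters that are each A or T, looked for on both strands, and they do not overlap each other.
DKK1 upstream: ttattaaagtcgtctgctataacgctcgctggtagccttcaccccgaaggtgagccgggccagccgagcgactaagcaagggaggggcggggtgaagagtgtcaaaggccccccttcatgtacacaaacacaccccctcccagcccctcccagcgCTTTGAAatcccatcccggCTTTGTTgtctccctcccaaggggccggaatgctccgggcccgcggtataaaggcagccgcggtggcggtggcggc
The matches span bases -95 to -89 and -76 to -70 from the start. At least 1 match was found in 12% of 35116 RefSeq promoters of this length and at least 2 in 1.21%. The promoter table held 7 of the 10 genes (not AXIN2, ZNRF3 or DKK3). TCF7 had 1 match, AACAAAG on the other strand at -50 to -44, before a start that lies 8907 bases inside the gene. CTNNB1, WNT3, WNT5A, WNT5B and LEF1 had none in these windows, all of which lay before starts inside the table's gene rather than at its first base. A match is a description of the letters and not a measured site.

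DKK1 was at 108, 151 and 156 CPM in control vector and at 69.6, 151 and 145 CPM in ∆GAG-BG. S534A held 102, 83.6 and 162 CPM and S545A 87.4, 194 and 194 CPM. In control vector, ∆GAG-BG and S545A library 1 was below libraries 2 and 3, and S534A library 2 fell among the libraries numbered 1. S545A libraries 2 and 3 were the highest of the 12, and S545A library 1 lay below all control vector libraries, so the groups overlapped in every comparison. The intervals over the 6 comparisons reached from 0.482-fold to 2.38-fold.

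DKK3, a divergent relative of DKK1 that is often silenced in tumors, lies on chromosome 11 from 11963106 to 12009769 on the minus strand. It was at 45.5, 83.2 and 85.8 CPM in control vector, at 75.0, 71.4 and 70.6 CPM in ∆GAG-BG, at 45.4, 35.7 and 90.6 CPM in S534A and at 53.6, 105 and 110 CPM in S545A. The ∆GAG-BG libraries stayed within 70.6 to 75.0 CPM, while the other groups were spread by library. S534A library 2 was lowest for DKK3, and the 2 highest libraries were again S545A 2 and 3. In S545A against S534A the unadjusted p was 0.0957 by edgeR, and 0.00369 without S534A library 3 and 0.0204 without S545A library 1, with adjusted p of 0.31 and 0.41. Without any 1 of the other 4 libraries of these groups it lay between 0.207 and 0.288, the highest without S534A library 2.

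**Figure D4:**
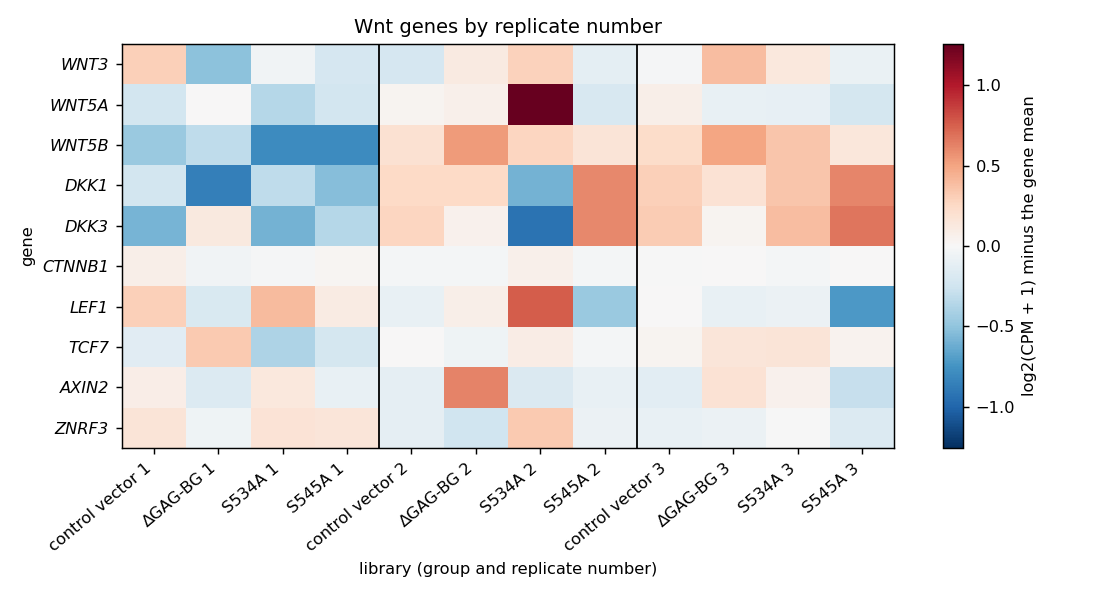
Log2(CPM + 1) of the 10 Wnt genes (rows) minus each gene's mean, in the 12 libraries (columns) ordered by replicate number, with lines between the numbers. WNT5B is below its mean in all 4 libraries numbered 1 and above it in all 8 others, and S534A library 2 is high in WNT5A and LEF1 and low in DKK1 and DKK3.

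CTNNB1, the gene of β-catenin, lies on chromosome 3 and runs from 41194837 to 41260096 on the plus strand in the count table. It held 679, 635 and 646 CPM in control vector, 630, 636 and 648 CPM in ∆GAG-BG, 641, 676 and 634 CPM in S534A and 657, 636 and 650 CPM in S545A. Its highest library was 1.08-fold above its lowest. The 95% intervals of all 6 comparisons lay within 0.879-fold and 1.13-fold, which bounds a change in its RNA. β-Catenin is mainly regulated as a protein, which was not measured in these libraries.

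LEF1, a β-catenin partner that canonical signaling also induces, lies on chromosome 4 from 108047545 to 108168956 on the minus strand. It was at 3.53, 2.45 and 2.70 CPM in control vector, at 2.22, 2.88 and 2.44 CPM in ∆GAG-BG, at 3.84, 5.23 and 2.49 CPM in S534A and at 2.94, 1.66 and 1.23 CPM in S545A. The mean was 3.85 ± 1.37 CPM (SD, n = 3) in S534A and 1.95 ± 0.891 CPM (SD, n = 3) in S545A. S534A libraries 1 and 2 were the highest of the study and S545A libraries 2 and 3 the lowest, but S545A library 1 was above S534A library 3. The log2 fold change of S545A against S534A was -1.00 (standard error 0.326), with an unadjusted p of 0.00952 and an adjusted p of 0.70 by edgeR, and an exact permutation p of 0.2. Without S534A library 2 it was -0.72 with an unadjusted edgeR p of 0.0550. LEF1 had 34 to 157 counts per library, and 279 bases of its exons overlap the antisense gene LEF1-AS1, which had 2 to 15 counts.

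TCF7, the other nuclear factor, lies on chromosome 5 from 134114711 to 134151865 on the plus strand. Control vector held 14.8, 16.4 and 16.7 CPM, ∆GAG-BG 20.8, 15.7 and 18.3 CPM, S534A 12.3, 17.5 and 18.5 CPM and S545A 13.9, 16.1 and 16.9 CPM. Its intervals over the 6 comparisons reached from 0.673-fold to 1.46-fold, and no group stood clear of another. The highest library was ∆GAG-BG 1, which also had the highest mean of the endoplasmic reticulum stress genes. The TCF7 exons share 210 bases with SKP1 on the opposite strand, which had 2158 to 5194 counts, and the sources do not say whether strand was used in counting.

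AXIN2, the scaffold that canonical signaling induces as a brake on itself, lies on chromosome 17 from 65528563 to 65561647 on the minus strand. Its counts were low, 5 to 26 per library, and only 5 of the 12 libraries reached the 0.414 CPM that the filter asks for. It was at 0.518, 0.330 and 0.313 CPM in control vector, at 0.272, 1.21 and 0.632 CPM in ∆GAG-BG, at 0.568, 0.267 and 0.485 CPM in S534A and at 0.349, 0.343 and 0.171 CPM in S545A. ∆GAG-BG libraries 2 and 3 were the highest of the 12, while ∆GAG-BG library 1 lay among the S545A libraries. S545A against ∆GAG-BG gave a log2 fold change of -1.30 (standard error 0.526), with an unadjusted p of 0.0290 and an adjusted p of 1.00 by edgeR, and an exact permutation p of 0.3. The call rests on a few counts, since it fell to -0.67 (unadjusted edgeR p of 0.228) without ∆GAG-BG library 2 and to -1.01 (0.111) without S545A library 3. A gene on the same strand, CTD-2535L24.2, shares 1316 of the 5226 exonic bases of AXIN2 and had 0 counts in all 12 libraries. The sources do not say how reads that fall on 2 genes were counted. The counts and RPKM of AXIN2 may therefore miss reads from the shared bases.

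ZNRF3, a membrane ubiquitin ligase that clears Frizzled receptors and is induced by the signal it limits, lies on chromosome 22 from 28883592 to 29057487 on the plus strand. It was at 11.2, 9.04 and 9.19 CPM in control vector, at 9.47, 8.12 and 9.34 CPM in ∆GAG-BG, at 11.3, 12.7 and 9.82 CPM in S534A and at 11.1, 9.30 and 8.67 CPM in S545A. All 3 S534A libraries were above all 3 ∆GAG-BG libraries, the 1 member without overlap in this comparison, where 5.65% of all genes did not overlap. The means were 11.2 ± 1.42 CPM (SD, n = 3) and 8.98 ± 0.743 CPM (SD, n = 3), and the fold fitted by edgeR was 1.26. On the log2 scale the difference was 0.33 (standard error 0.144), with an unadjusted p of 0.0411 and an adjusted p of 0.89 by edgeR, and an exact permutation p of 0.1. Leaving out S534A library 1 or 2 or ∆GAG-BG library 2 or 3 brought the unadjusted edgeR p to between 0.0613 and 0.141. In the 3 comparisons with control vector no member was without overlap between the groups, against 4.87%, 7.65% and 8.82% of all genes for ∆GAG-BG, S534A and S545A.

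WNT3 and AXIN2 were followed further because their direction between ∆GAG-BG and control vector turned on the libraries in which the construct gene went against the labels; these results were chosen after their values were seen. With all libraries the WNT3 log2 fold change of ∆GAG-BG against control vector was -0.0005, and that of AXIN2 was 0.83. The AXIN2 value was 0.20 without ∆GAG-BG library 2 and 1.2 without ∆GAG-BG library 1, which leaves the nearly alike ∆GAG-BG libraries 2 and 3. With replicate 1 alone, which sets 1 library against 1, the log2 fold change was -0.95 for WNT3 and -0.94 for AXIN2. With replicates 2 and 3 alone, which were nearly alike within each group, it was 0.41 for WNT3 and 1.50 for AXIN2. These are descriptions with no test, since the genes were picked for turning on this split. The 3 libraries with the least TGFBR3 (15.9 to 21.4 CPM) were control vector 1 and ∆GAG-BG 2 and 3, and they held 8.68 to 10.7 CPM of WNT3 and 0.518 to 1.21 CPM of AXIN2. Control vector 2 and 3 and ∆GAG-BG 1, each with 259 CPM of TGFBR3, held 5.26 to 7.86 CPM of WNT3 and 0.272 to 0.330 CPM of AXIN2. DKK3 also parted on these libraries, in the other direction. It was at 45.5 to 71.4 CPM where TGFBR3 was least and at 75.0 to 85.8 CPM where TGFBR3 was at 259 CPM. The share of all genes that part in this way was not counted. The mean of the endoplasmic reticulum stress genes moved with the same libraries, at 7.37, 7.39 and 8.78 on the log2(CPM + 1) scale in control vector 2 and 3 and ∆GAG-BG 1 against 6.36, 6.35 and 6.31 in control vector 1 and ∆GAG-BG 2 and 3, and its part was not tested. These are values of single libraries set side by side, with no test. S534A, with 413 to 476 CPM of TGFBR3, held 7.67 to 9.97 CPM of WNT3 and 0.267 to 0.568 CPM of AXIN2. Both S534A ranges overlap those of the libraries with the least TGFBR3 and also those of the libraries at 259 CPM. S545A, with 520 to 574 CPM of TGFBR3, held 6.74 to 7.44 CPM of WNT3 and 0.171 to 0.349 CPM of AXIN2. Both S545A ranges were below those of the libraries with the least TGFBR3 and overlapped those of the libraries at 259 CPM.

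**Figure D5:**
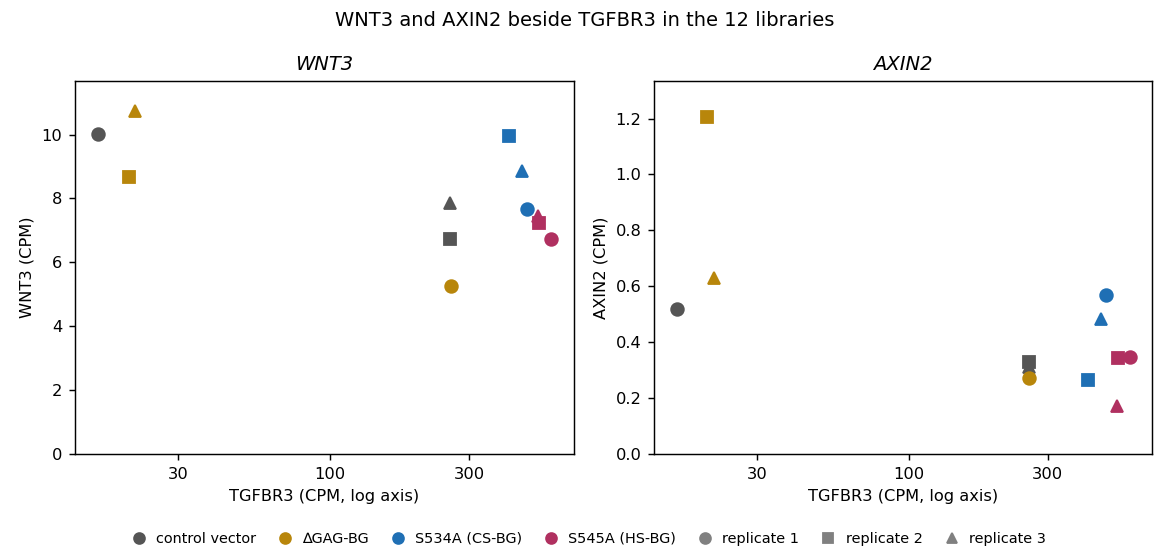
WNT3 (left) and AXIN2 (right) in CPM against TGFBR3 in CPM (log axis) in the 12 libraries, with colour for the labelled group and shape for the replicate number. Control vector 1 and ∆GAG-BG 2 and 3 lie at 15.9 to 21.4 CPM of TGFBR3, apart from the library or libraries that share their label, which lie at 259 CPM.

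The rest of the pathway was described from lists of ligands, secretion factors, agonists, antagonists, destruction complex genes, Dishevelled genes, nuclear partners and targets, which hold 80 genes beyond the 10. Of these, 44 passed the filter, and edgeR called 0 of them at an adjusted p under 0.05 in either direction in all 6 comparisons. At an unadjusted p under 0.05, ∆GAG-BG against control vector gave 1 higher and 0 lower, S534A against ∆GAG-BG 1 of each, S545A against ∆GAG-BG 0 of each, and S545A against S534A 0 and 1. S534A against control vector gave 1 higher and 0 lower, and S545A against control vector 0 and 1. Among all genes, the shares called higher and lower were 0.61% and 0.261%, 1.34% and 1.65%, 0.498% and 0.604%, 2.1% and 2.68%, 2.19% and 1.26%, and 0.691% and 0.355% in the same order. The median log2 fold change of the 44 genes lay between -0.07 and 0.05.

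The ligand gene WNT2B was at 1.49, 2.83 and 2.24 CPM in S534A, at 1.08, 1.52 and 1.67 CPM in S545A and at 1.49, 1.53 and 1.44 CPM in ∆GAG-BG, and it had 28 to 85 counts. Only S534A libraries 2 and 3 stood clear of all the others. Its log2 fold change by edgeR was 0.55 (standard error 0.250, unadjusted p of 0.0471) in S534A against ∆GAG-BG and 0.67 (0.249, 0.0197) against control vector, and it was -0.62 (0.249, 0.0288) in S545A against S534A. WNT7B, another ligand gene, gave 0.45 (0.172, 0.0233) in ∆GAG-BG against control vector, with 7.97, 6.96 and 6.09 CPM against 5.67, 5.65 and 4.11 CPM. KREMEN1, a receptor that works with DKK1, gave -0.45 (0.200, 0.0425) in S545A against control vector, with 2.01, 2.74 and 2.94 CPM against 3.11, 3.48 and 3.95 CPM. LGR5, a target gene and receptor for R-spondins, gave -1.23 (0.536, 0.0399) in S534A against ∆GAG-BG from 5 to 22 counts per library. All adjusted p-values of these genes were 0.70 or more by edgeR.

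The 22 canonical target genes of the list split by level rather than by group. CCND1, CD44 and MYC, which many other signals also drive, were at 151, 111 and 110 RPKM. RNF43, APCDD1, NKD1, LGR6, ASCL2 and CDX1 had at most 1 count in any library, and SP5, a target that follows canonical signaling closely, had 12 to 40 counts (0.537 RPKM). Of the 14 that passed the filter, the members ZNRF3, AXIN2 and LEF1 and the gene LGR5 were those with an unadjusted edgeR p under 0.05 in any of the 6 comparisons. Single comparisons called 0.871% to 4.78% of all genes. The share of all genes called in any of the 6 was not counted, so these targets cannot be set against it. In the destruction complex all 10 genes passed, and AXIN1, the constitutive partner of AXIN2, was at 4.96 RPKM against 0.0869 RPKM of AXIN2.

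The genes whose log2(CPM + 1) was most like that of AXIN2 over the 12 libraries, among all genes tested, were RP11-177C12.1 (Pearson r of 0.913), RP11-298J20.4 (0.907) and HOXC6 (0.850). RP11-298J20.4 had 9 to 28 counts and HOXC6 6 to 17 counts per library. The 12 points share libraries of which 3 pairs were nearly alike, and the closest of all tested genes were picked, so these correlations are a description.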

How the data were processed

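HEYA8 RNA was sequenced in 12 libraries, 3 a group. The authors deposited raw counts per gene in 1 table, made with FastQC, Trim Galore 0.4.5, STAR 2.4, SAMtools 1.2 and featureCounts per the submitters' processing notes. Those notes list mouse builds, but the coordinates in the table are human GRCh38. The strand setting and annotation release are not given in the sources used here, while the labels name a directional kit.

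The quasi-likelihood test of edgeR 4.0.16 (R 4.3.3, robust) was run on the deposited counts of the 16069 genes left by filterByExpr (minimum count 10), with TMM factors and 1 model for the 4 groups (8 residual degrees of freedom), and p-values were adjusted by Benjamini-Hochberg. The biological coefficient of variation was 0.163. An exact permutation test (two-sided) of log2(CPM + 1), pseudocount 1, was added for pairs of groups. RPKM used the exon length in the table. On simulated data for S534A against ∆GAG-BG, where 200 of the 16069 genes differed 2-fold, 61% of these were called, and 7 others. The simulated libraries were drawn independently, without near-alike pairs or libraries that stood apart. The 61% is therefore not a power for these data, where this comparison had 0 genes at an adjusted p under 0.05.

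All 10 genes were named with every library's value, a fold change with its standard error only at an unadjusted p under 0.05, at most 3 other pathway genes per comparison, and the 3 genes most like AXIN2. WNT3 and AXIN2 in ∆GAG-BG against control vector, intervals, and the levels of other pathway genes were added after values were seen. Members and lists were chosen with earlier results of these data known.

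Alternatives were no filter, scaling by RLE or by library size only, DESeq2 1.42.0, fits of only the 2 groups compared, a block for the replicate number, leaving out each library, near-alike libraries summed, and ∆GAG-BG and control vector by replicate 1 or by replicates 2 and 3 alone. Same-numbered S545A and control vector libraries deviated together (correlations of 0.73, 0.48 and 0.48), and their numbers were taken as pairs on this ground alone. Sequences are from RefSeq (GRCh38.p14).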

Additional observations from a re-analysis of the deposited data

How the results depend on the processing

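Over all alternatives and comparisons, 0 of the 10 genes reached an adjusted p under 0.05 by edgeR or DESeq2 (88 combinations of an alternative and a comparison, smallest 0.296). The number of the 10 at an unadjusted p under 0.05 moved more. In S534A against ∆GAG-BG (1 by edgeR with all libraries) it was 2 with no filter on low counts, 0 with only the 2 groups compared, 0 with libraries 2 and 3 summed and 2 with replicates 2 and 3 of ∆GAG-BG and control vector alone. In S545A against ∆GAG-BG (1) it was 0 with those libraries summed, 0 with replicate 1 alone and 2 with replicates 2 and 3 alone. In S545A against S534A (1) it was 0 with libraries summed and 2 with DESeq2, which added WNT5A (unadjusted p of 0.0310). In ∆GAG-BG against control vector (0) it was 1 with replicate 1 alone and 2 with replicates 2 and 3 alone, and in S545A against control vector (0) it was 1 with replicate 1 alone. Replicate 1 alone leaves 1 library in ∆GAG-BG and in control vector, assumed to vary like the other groups, and replicates 2 and 3 are nearly alike, so these counts describe libraries. Leaving out 1 library gave 0 to 3 for S545A against S534A and for S534A against ∆GAG-BG, 0 to 2 for S534A against control vector and for S545A against ∆GAG-BG, and 0 to 1 for S545A and for ∆GAG-BG against control vector. The share of all genes at an unadjusted p under 0.05 was not counted for any alternative. The counts of members under the alternatives therefore cannot be set against all genes.

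With the replicate number as a block the count was 1 for ∆GAG-BG against control vector and 2 for S545A against S534A, where DKK3 was added, and also 2 for each of S534A and S545A against ∆GAG-BG, where WNT5B was added, as it was in ∆GAG-BG against control vector. The block changed no call in the paired comparison of S545A with control vector, where 6 of 6 libraries correlated best with their own number. In the other 5 comparisons 0 to 3 of 6 did, at least 1 correlation was negative, and the numbers are shared by name only.

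WNT3 in ∆GAG-BG against control vector turned to 0.0032 with library size only and to 0.41 with replicates 2 and 3 alone, and ran from -0.24 to 0.23 when 1 library was left out. AXIN2 turned to -0.94 there with replicate 1 alone and, in S545A against ∆GAG-BG, to 0.047 with replicate 1 alone, where ∆GAG-BG is 1 library. LEF1 in S545A against S534A kept its direction in all 13 alternatives, and its unadjusted p was over 0.05 in 2 of them, 0.0550 without S534A library 2 and 0.0544 with libraries summed (-0.87). The ZNRF3 p exceeded 0.05 in 7 of 15. The causes were not tested. With only the 2 groups compared, AXIN2 in S545A against ∆GAG-BG did not pass the filter and has no value, and the 1 gene under 0.05 there was WNT5A (-0.22, edgeR unadjusted p of 0.0430). Depth limits AXIN2 most, at 5 to 26 counts per library.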
